A study of Mus musculus with 8 samples.

Results

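The genes described here are the 4 named members of a locus on mouse chromosome 14: Gm27177, an antisense gene, Loxl2, Entpd4 and Entpd4b. They were found among the 45706 genes of the deposited table of estimated counts, 3 of them by gene name and Entpd4b by its gene identifier, since the table lists it under the older symbol Gm21685. The members were chosen by their measured values in SA/SA against WT liver, around Gm27177, so these values are given as a description without a test. RNA came from whole liver of female mice, 4 of WT genotype and 4 of genotype S155A, with 1 library per mouse. The S155A mice, called SA/SA, carry a whole-body CRISPR-Cas9 knock-in that puts alanine in place of the serine that protein kinase A phosphorylates in PLIN5, a lipid droplet protein, traced to a founder mouse. All 8 mice were on the C57BL/6J strain, were 4 months old, ate regular chow and were fasted overnight before harvest. Animal numbers in the labels fell under 200 for replicates 1 and 4 of each genotype and over 800 for replicates 2 and 3.

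The total estimated count per library ranged from 39709785 to 54540864. Plin5 itself had 183 to 254 CPM (counts scaled to TMM-normalized library sizes) in WT mice and 192 to 457 CPM in SA/SA mice, and these gene totals do not show the replaced codon. The labels name hepatocytes as the cell type, and the 8 hepatocyte markers summed to 92544 to 108373 CPM in WT mice and 88652 to 127673 CPM in SA/SA mice. Markers of other liver cells were also counted, so the values are those of whole liver. In such bulk samples, fewer cells of a type and less RNA per cell cannot be told apart. By cell type markers, 2 of the 8 libraries stood apart. In SA/SA replicate 3, the 8 lymphocyte markers summed to 1254 CPM, against 12.2 to 28.3 CPM in the other 7 mice. In WT replicate 2, the 6 pancreatic acinar markers summed to 34.8 CPM, against 4.18 to 6.43 CPM in the other 7 mice. Members are given with and without these libraries below.

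LOXL2 is a secreted, copper-dependent amine oxidase of the lysyl oxidase family. It oxidizes lysine side chains in collagens and thereby starts the cross-linking of the extracellular matrix, and it is known in liver for its part in fibrosis. ENTPD4 is an intracellular nucleoside diphosphatase of Golgi and lysosomal or autophagic vesicles. In the Golgi, sugars are transferred to proteins from nucleotide sugars, the released UDP is cleaved to UMP by such enzymes, and UMP leaves in exchange for new UDP-sugar through nucleotide sugar transporters. Gm27177 is annotated as an antisense RNA gene, and no function is given for it here.

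In GENCODE release M21 of build GRCm38, the members lie in a block of chromosome 14 that is present in a pair of copies in the same orientation. Entpd4 spans chr14:69337174-69367270 on the forward strand, and Entpd4b spans chr14:69555424-69585520 on the forward strand, with their starts 218.25 kb apart. The longest transcript of each was identical to the other over all 3589 bases, the coding sequence of 1839 bases included. Of the 8149 distinct stretches of 31 bases in Entpd4b transcripts, all 8149 also occur in Entpd4. Gm27177 spans chr14:69582164-69683286 on the reverse strand, has 5 annotated transcripts, and has its counterpart in Gm16867, at chr14:69363504-69503362 on the reverse strand, annotated as protein coding and named Gm28049 in the table. Loxl2 spans chr14:69609068-69695834 on the forward strand, and its counterpart is the unprocessed pseudogene Gm21451, at chr14:69390854-69480287, with starts 218.214 kb apart.

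**Figure D1:**
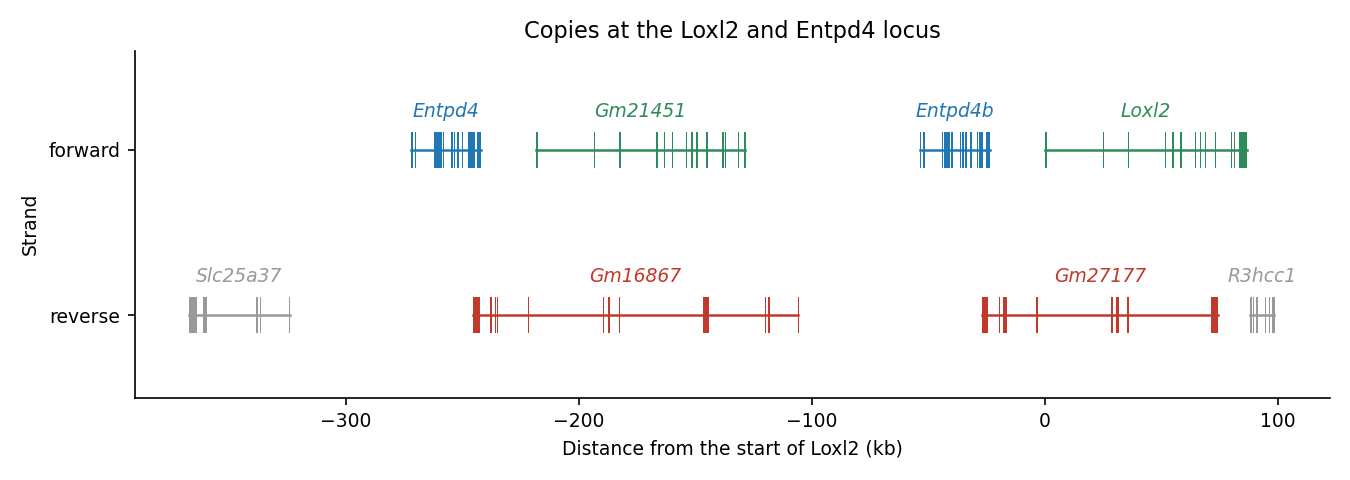
Map of the locus, with the distance from the start of Loxl2 in kb on the x axis and the strand on the y axis. Lines are gene spans and blocks are exons (drawn at least 0.6 kb wide), and genes of 1 color are copies of each other: Entpd4, Gm16867 and Gm21451 on the left recur as Entpd4b, Gm27177 and Loxl2 about 218 kb to the right.

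The antisense gene runs against both coding genes beside it. Its exons lie opposite exons of Entpd4b over 1700 bases, of which 379 are coding, and opposite coding exons of Loxl2 over 301 bases. A further 3004 bases of its exons lie within Loxl2 introns. Each of its 5 transcripts was contained whole in a transcript of Gm16867. The shortest transcript, of 602 bases, equals a Gm16867 transcript from end to end, and the other 4 lack only 245 to 381 bases at the 5′ end of their Gm16867 counterpart. Of the 7809 distinct stretches of 31 bases in Gm16867, 494 occur in no other gene and 7315 occur in other genes. These other genes are 2 in number, so a gene outside the pair also shares part of Gm16867. All 6872 distinct stretches in Gm27177 occur in Gm16867. A read of 100 bases from within Gm27177 therefore matches Gm16867 as well. The exons below show this, since each is the same letter for letter in Gm16867, as the RNA reads 5′ to 3′ on the reverse strand. The last line shows an exon of that shortest transcript that faces Loxl2, with the 57 bases opposite a Loxl2 coding exon in capitals.
Gm27177 exon, chr14:69640173-69640274, equal to Gm16867 at chr14:69421898-69421999: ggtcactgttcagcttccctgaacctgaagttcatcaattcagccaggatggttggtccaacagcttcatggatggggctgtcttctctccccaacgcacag
Gm27177 exon, chr14:69591263-69591371, equal to Gm16867 at chr14:69373013-69373121: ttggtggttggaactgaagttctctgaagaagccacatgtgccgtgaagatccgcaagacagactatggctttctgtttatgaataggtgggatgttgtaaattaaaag
Gm27177 exon, chr14:69605525-69605647, equal to Gm16867 at chr14:69387275-69387397: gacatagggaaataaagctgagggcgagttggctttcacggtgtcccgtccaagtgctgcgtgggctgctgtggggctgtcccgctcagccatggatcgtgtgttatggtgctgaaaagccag
Gm27177 exon, chr14:69644597-69644752: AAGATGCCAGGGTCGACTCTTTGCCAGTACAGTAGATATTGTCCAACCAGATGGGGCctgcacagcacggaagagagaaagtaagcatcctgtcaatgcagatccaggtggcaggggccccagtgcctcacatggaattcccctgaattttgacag

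Gm27177 was lower in SA/SA liver than in WT liver, by the values that chose it. The estimated counts were 97.3, 40.5, 35.3 and 44.0 in WT replicates 1 to 4. They were 3.35, 8.14, 6.48 and 6.49 in SA/SA replicates 1 to 4. Every SA/SA mouse lay below every WT mouse, and WT replicate 1 had more than the other WT mice. Gm27177 averaged 1.06 CPM ± 0.504 (SD, n = 4) in WT mice and 0.125 CPM ± 0.0503 (SD, n = 4) in the SA/SA group, a ratio of 8.50, and the fitted log2 fold change of edgeR was -3.08. It passed the filter on low counts through its WT libraries alone. It was the single member of 4 whose genotypes did not overlap, and 1.36% of the 14629 genes tested were lower in SA/SA mice without overlap. With animals numbered under 200 alone, the difference in mean log2 CPM was -3.39, and with those over 800 it was -2.01. Leaving out SA/SA replicate 3 gave -3.21, and leaving out WT replicate 2 gave -3.19.

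**Figure D2:**
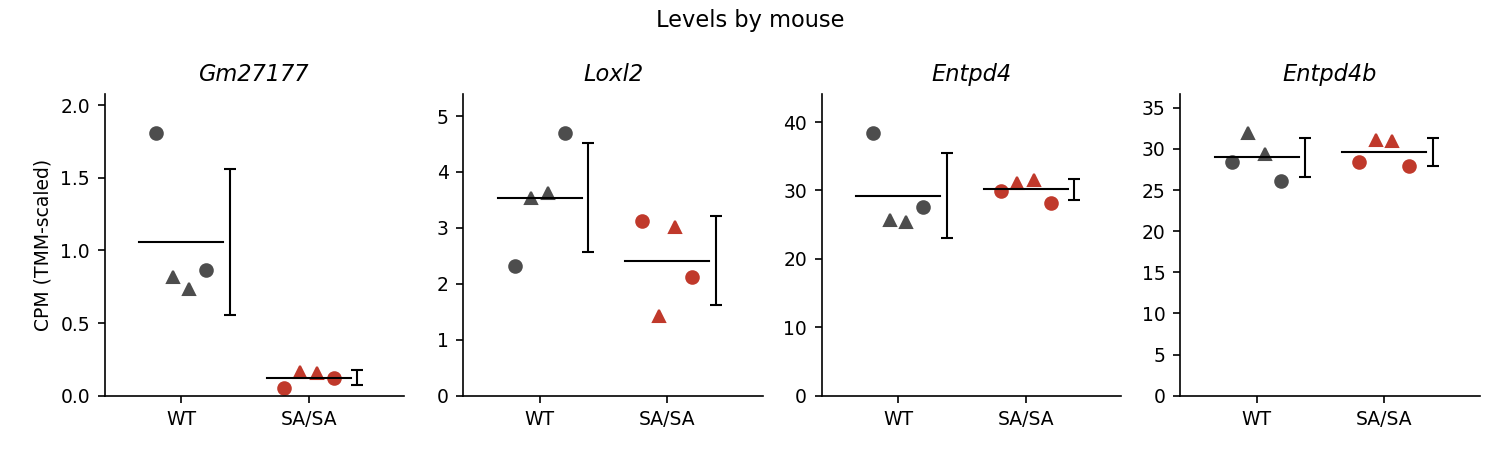
CPM of the 4 members on the y axis, by genotype on the x axis, with a panel and a linear scale of its own for each gene. Points are mice, with circles for animal numbers under 200 and triangles for those over 800, horizontal lines are means, and bars are 1 SD (n = 4). The 4 SA/SA mice lie at 0.0556 to 0.165 CPM of Gm27177, below the WT range of 0.737 to 1.81 CPM, and the genotypes overlap for the other 3 genes.

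The counterpart Gm16867 moved the other way. Its estimated counts were 182, 127, 97.1 and 191 in WT replicates 1 to 4 and 297, 185, 170 and 240 in SA/SA replicates 1 to 4. On the CPM scale it averaged 2.93 ± 0.789 (SD, n = 4) in WT mice and 4.64 ± 0.694 (SD, n = 4) in SA/SA mice, and every SA/SA mouse lay above every WT mouse, as for 0.943% of all genes tested. Its log2 fold change was 0.66 (adjusted p = 0.993, edgeR quasi-likelihood test), so this difference did not pass the test across all genes. The pair was then added together, a step chosen after seeing the data. The sum of Gm27177 and Gm16867 was 280, 168, 132 and 235 estimated counts in WT replicates 1 to 4. It was 300, 193, 177 and 246 estimated counts in SA/SA replicates 1 to 4. These sums overlapped between genotypes, at 3.99 CPM ± 1.12 in WT mice and 4.77 CPM ± 0.647 in SA/SA livers (SD, n = 4 each). The fitted log2 fold change of the sum was 0.26, against -3.08 for Gm27177 alone. Gm27177 made up 26.5% of the pair's mean CPM in WT mice, so that its complete absence with Gm16867 unchanged would move the sum by -0.44 on the log2 scale. Gm27177 held 34.8%, 24.2%, 26.7% and 18.7% of the pair's counts in WT replicates 1 to 4. Its share was 1.12%, 4.22%, 3.66% and 2.64% in SA/SA replicates 1 to 4, below every WT share. Whether less Gm27177 was transcribed in SA/SA liver or the reads of the pair were divided differently cannot be told apart in these counts.

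**Figure D3:**
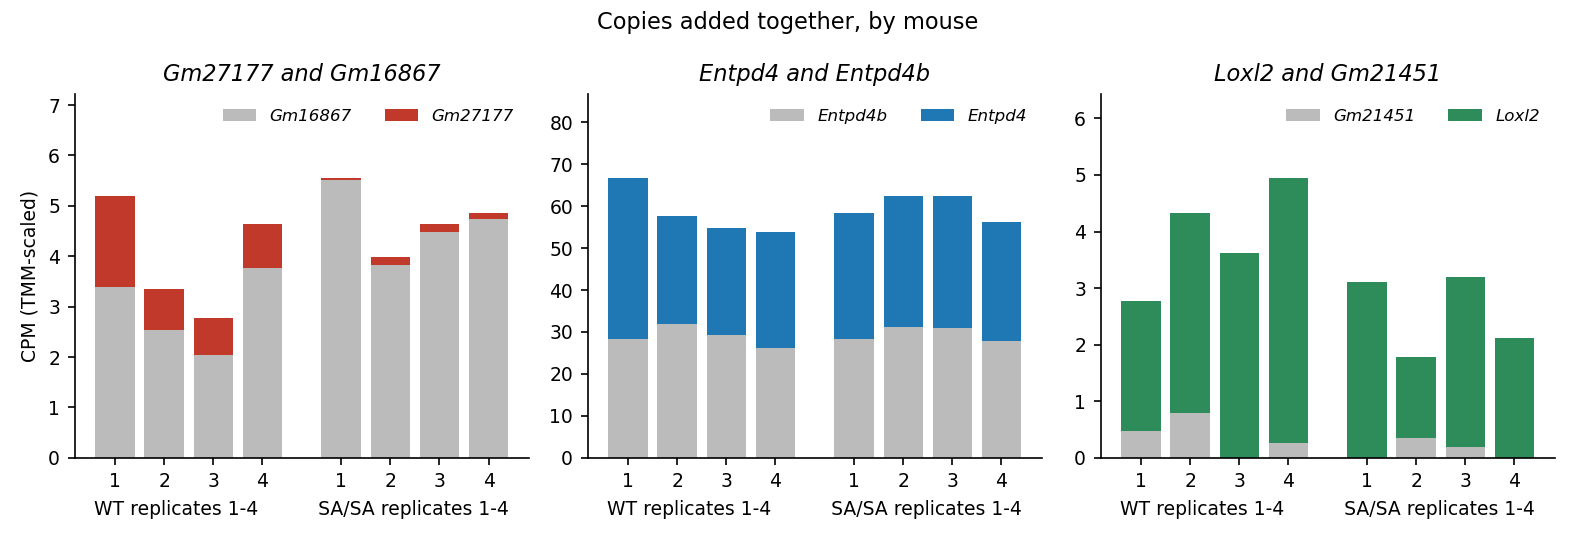
CPM on the y axis for each mouse on the x axis, with the gene and its counterpart stacked, in a panel per pair. The Gm27177 part of the first panel is small in all 4 SA/SA mice, while the height of the whole bar is 2.78 to 5.20 CPM in WT mice and 3.99 to 5.56 CPM in SA/SA mice.

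How the counting program divided reads between copies is not given, but the estimated counts of other pairs of the block can be described. The window of 500 kb on each side of Gm27177 held 9 pairs of same-strand genes that were each the best match of the other in the window by shared stretches of 31 bases, at the spacing of Entpd4 and Entpd4b to within 2 kb. All stretches of the shorter gene were shared in each pair. Loxl2 and Gm21451 were not among them, since Gm21451 shared all stretches of the shorter gene with Gm27222. Of the 9 pairs, 6 had a summed count of at least 5 in 1 or more mice. Gm31748 and Gm37847, which share all their stretches of 31 bases, never had counts in the same mouse. Gm31748 had 0, 67.0, 26.8 and 14.02 counts in WT replicates 1 to 4, and Gm37847 had 35.1, 0, 0 and 0. In SA/SA replicates 1 to 4, Gm31748 had 0, 57.0, 0 and 28.9 counts, and Gm37847 had 51.0, 0, 46.0 and 0. All counts thus fell to the first copy in 5 mice and to the second in 3, and both outcomes occurred in each genotype. Gm27221 and Gm27176 had all counts in a single copy in 5 of 7 mice and an equal division, within 1 percentage point, in the other 2. Gm38378 and Gm37513 had all counts in a single copy in the 5 mice with at least 5 counts. Below that minimum, SA/SA replicates 3 and 4 had near equal counts of both, and WT replicate 4 had none. Gm20236 and Gm37094 had all counts in the second copy in 2 of 4 mice and an equal division in the other 2. In these 4 pairs the second copy held 0%, an equal share or 100%. The Gm27177 share was between 1.12% and 34.8% in all 8 mice, in a pair where Gm16867 has stretches of its own. The bearing of the other pairs on the Gm27177 counts was not tested.

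**Figure D4:**
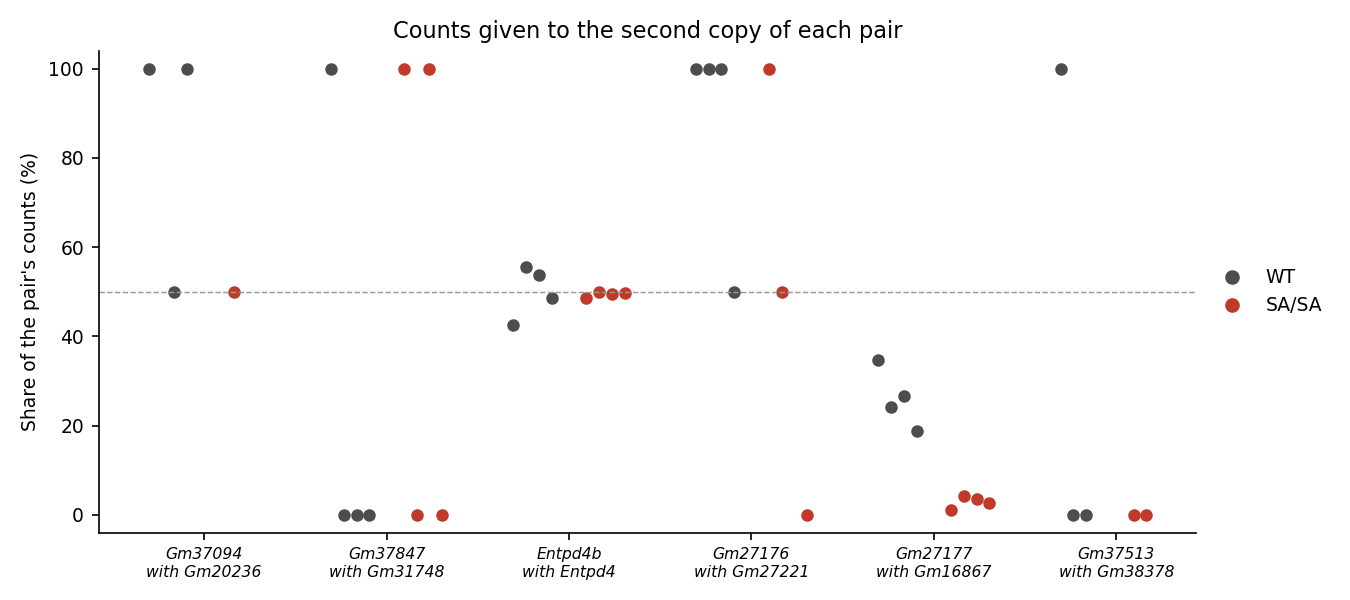
Share of a pair's estimated counts given to the second copy, in percent, on the y axis, for each of 6 pairs on the x axis. Points are mice with at least 5 counts in the pair, black for WT and red for SA/SA, and the dashed line is an equal division: 4 pairs sit at 0%, 50% or 100%, Entpd4b sits at 42.5% to 55.5%, and the share of Gm27177 is below 5% in the 4 SA/SA mice alone.

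Entpd4 and Entpd4b had similar values in both genotypes. Entpd4 had 2060, 1285, 1206 and 1399 estimated counts in WT replicates 1 to 4 and 1615, 1506, 1193 and 1424 in SA/SA replicates 1 to 4. WT replicate 1 was the highest mouse, and the remaining WT mice lay below the SA/SA mice on the CPM scale. The means were 29.3 CPM ± 6.19 in WT mice and 30.2 CPM ± 1.51 in SA/SA livers (SD, n = 4 each), with a log2 fold change of 0.04. Without WT replicate 1 it was 0.21. Entpd4b had 1522, 1603, 1396 and 1323 estimated counts in WT replicates 1 to 4 and 1534, 1506, 1173 and 1414 in SA/SA replicates 1 to 4. Its genotypes overlapped, at 29.0 CPM ± 2.42 in WT mice and 29.6 CPM ± 1.66 in SA/SA livers (SD, n = 4 each), with a log2 fold change of 0.03. As the transcripts are the same, the sum is the firmer value, and it was 58.2 CPM ± 5.94 in WT mice and 59.8 CPM ± 3.10 in SA/SA livers (SD, n = 4 each). Entpd4b took 42.5%, 55.5%, 53.6% and 48.6% of the sum in WT replicates 1 to 4. In SA/SA replicates 1 to 4 it took 48.7%, 50.0%, 49.6% and 49.8%, so its share lay within the WT range in every SA/SA mouse. Within animal numbers under 200, the difference in mean log2 CPM was -0.17 for Entpd4 and 0.05 for Entpd4b. Within those over 800, it was 0.30 for Entpd4 and 0.02 for Entpd4b. Without SA/SA replicate 3, the log2 fold change was 0.02 for Entpd4 and 0.01 for Entpd4b, and without WT replicate 2 it was -0.01 and 0.08.

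Loxl2 had a lower mean in SA/SA mice, with overlap. Its estimated counts were 124, 177, 172 and 238 in WT replicates 1 to 4. They were 168, 68.6, 114 and 107 in SA/SA replicates 1 to 4. The lowest WT mouse lay below 2 of the SA/SA mice on the CPM scale. Loxl2 averaged 3.54 CPM ± 0.975 in WT mice and 2.42 CPM ± 0.798 in SA/SA livers (SD, n = 4 each), with a log2 fold change of -0.55. The pseudogene Gm21451 shares 43.3% of the 5358 distinct stretches of 31 bases of Loxl2, while 2882 occur in Loxl2 alone. Gm21451 had 24.7, 40.2, 0 and 13.2 estimated counts in WT replicates 1 to 4 and 0, 16.9, 6.86 and 0 in SA/SA replicates 1 to 4. Adding it left the genotypes overlapping, at a log2 fold change of -0.63. The difference in mean log2 CPM of Loxl2 was -0.36 within animal numbers under 200 and -0.77 within those over 800. Without SA/SA replicate 3 the value was -0.67, without WT replicate 2 it was -0.55, and without SA/SA replicate 2, the lowest mouse, it was -0.36.

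Genes of the cells that make matrix in liver had lower means in SA/SA mice as well. Of 9 hepatic stellate cell markers, 8 had a lower fitted value in SA/SA mice, with a median log2 fold change of -0.33, against -0.01 over all genes tested. Of the 14629 genes tested, 7491 had a lower and 7138 a higher fitted value in SA/SA mice. The summed level of the stellate cell markers was 501 to 649 CPM in WT mice and 383 to 611 CPM in SA/SA mice, which overlapped. The part of these cells in the Loxl2 values was not tested. The summed levels of the 6 other cell lists overlapped between genotypes too. The fitted value in SA/SA mice was higher for 7 of 7 Kupffer cell markers, 8 of 8 lymphocyte markers and 7 of 8 hepatocyte markers, with medians of 0.23, 0.72 and 0.11. It was lower for 6 of 8 endothelial markers, 5 of 6 cholangiocyte markers and the 2 tested acinar markers, with medians of -0.15, -0.27 and -1.75. The lymphocyte and acinar values include the libraries that stood apart. Without SA/SA replicate 3, lymphocyte markers summed to 12.2 to 28.3 CPM in WT mice and 15.9 to 18.3 CPM in SA/SA mice. Without WT replicate 2, acinar markers summed to 4.18 to 5.62 CPM and 4.43 to 6.43 CPM, in that order. Endothelial markers summed to 202 to 274 CPM in WT mice and 162 to 218 CPM in SA/SA mice. Kupffer cell markers summed to 182 to 373 CPM and 198 to 423 CPM, and cholangiocyte markers to 27.2 to 85.7 CPM and 36.7 to 44.1 CPM, in that order. None of the markers was without counts in all 8 mice.

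Per kilobase of exons, the order of the levels in WT liver was Entpd4, Entpd4b, Loxl2 and Gm27177. Entpd4 had 3.62 CPM per kb ± 0.766 and Entpd4b 3.59 CPM per kb ± 0.299 (SD, n = 4 each), which did not differ beyond their spread. These copies share all their stretches of 31 bases, so their order depends on how reads were divided and does not rank the genes. Loxl2 had 0.655 CPM per kb ± 0.180, and its highest WT mouse, at 0.869 CPM per kb, lay below the lowest Entpd4b mouse at 3.23 CPM per kb. Gm27177 had 0.153 CPM per kb ± 0.0729, with a highest mouse at 0.262 CPM per kb, below the lowest Loxl2 mouse at 0.428 CPM per kb. That separation depended on the length used. With the longest transcript as length, the highest WT mouse of Gm27177, at 0.614 CPM per kb, lay above the lowest of Loxl2, at 0.435. In SA/SA liver the order was the same, at 3.74 ± 0.186, 3.67 ± 0.206, 0.447 ± 0.148 and 0.0180 ± 0.00729 CPM per kb (SD, n = 4 each). The coefficient of variation of Gm27177 was 47.6% over the 4 WT mice, and 8.21% over the 3 without WT replicate 1. For Entpd4b it was 8.35% and 10.03%, in that order.

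Whether the members differed between animal numbers over 800 and under 200 was a contrast that their choice did not use, and it was tested with genotype as a covariate. No member passed the test, and 0% of the 14629 genes tested did so at an adjusted p under 0.05 by edgeR or limma-voom, while DESeq2 called 408. At an unadjusted p under 0.05, edgeR gave 1877 genes, 12.8% of those tested, and none of the 4 members. The log2 fold change of animals over 800 against those under 200 was -0.16 ± 0.49 (SE; adjusted p = 0.927) for Gm27177 and -0.11 ± 0.31 (SE; adjusted p = 0.925) for Loxl2. It was -0.13 ± 0.14 (SE; adjusted p = 0.738) for Entpd4 and 0.15 ± 0.083 (SE; adjusted p = 0.472) for Entpd4b, all by edgeR's quasi-likelihood test with Benjamini-Hochberg adjustment. With a mouse left out, the sign of this contrast was not stable for Gm27177, at -0.42 to 0.32, the highest without WT replicate 1. The same was so for Loxl2, at -0.32 to 0.10, and for Entpd4, at -0.20 to 0.01, while Entpd4b kept 0.13 to 0.18. The separate values of Entpd4 and Entpd4b depend on how reads were divided between these copies, so the steady sign cannot be assigned to Entpd4b. For the sum of Entpd4 and Entpd4b, the contrast was 0.01 (adjusted p = 0.978, edgeR quasi-likelihood test). The smallest adjusted p over all alternatives was 0.307, for Gm27177 summed with Gm16867.

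Whether the members varied together among mice of 1 genotype was tested over the 8 mice after the mean of each genotype was subtracted from log2 CPM. None of the 6 pairs passed. Gm27177 and Entpd4 had r = 0.788 (two-sided exact permutation p = 0.0660, adjusted 0.333) and rho = 0.714 (exact permutation p = 0.0677, adjusted 0.391). Without WT replicate 1 and SA/SA replicate 1, the mice farthest from the Gm27177 median, r was 0.944. Gm27177 and Loxl2 had r = -0.682 (exact permutation p = 0.111, adjusted 0.333) and rho = -0.643 (exact permutation p = 0.130, adjusted 0.391), and r was -0.388 without the same 2 mice. The other 4 pairs had r between -0.485 and 0.139, with adjusted exact permutation p-values of 0.455 to 0.823, and rho between -0.452 and 0.143, with 0.576 to 1. Entpd4 and Entpd4b were among them, with r = -0.116 and rho = 0. Each of the 6 pairs holds Gm27177, Entpd4 or Entpd4b, whose separate values depend on how reads were divided between copies. These correlations therefore cannot show whether the genes themselves vary together, and the sums of copies were not tested.

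Of the 42 annotated genes within 500 kb of Gm27177, 38 were not members, 36 of these were in the table and 15 passed the filter on low counts. None of the 15 passed the test of SA/SA against WT, as was so for all genes: edgeR called 0% and limma-voom none at an adjusted p under 0.05, and DESeq2 called 6. At an unadjusted p under 0.05, edgeR gave 497 genes, 3.4% of those tested, and 1 of the 15, Gm16867. The log2 fold changes of the 15 ran from -1.53 for Gm21451 to 0.66 for Gm16867, 8 of them above 0, with a median of 0.02. R3hcc1, the nearest gene past the 3′ end of Loxl2, averaged 16.3 CPM ± 1.34 in WT mice and 18.6 CPM ± 0.787 in SA/SA livers (SD, n = 4 each). Chmp7, a subunit of the ESCRT-III machinery of membrane remodelling, averaged 38.8 CPM ± 1.93 and 39.4 CPM ± 1.52. On the other side, the mitochondrial iron importer Slc25a37 averaged 31.5 CPM ± 7.04 and 31.1 CPM ± 8.80. Besides Gm16867, the single neighbor without overlap was Bin3, at 13.97 CPM ± 0.170 in WT mice and 15.3 CPM ± 1.14 in SA/SA mice. The gap was narrow, from 14.1703 CPM in its highest WT mouse to 14.1754 CPM in its lowest SA/SA mouse (unadjusted p = 0.215, edgeR). Of all genes tested, 0.943% were higher in SA/SA mice without overlap. The log2 fold changes of Rhobtb2, Ccar2, 4930480K23Rik, 9930012K11Rik, Pdlim2 and Sorbs3 ran from -0.15 to 0.30. Gm31748, Gm27176 and Tnfrsf10b, each under 1 CPM on average, had -0.30, -1.12 and -0.73. Gm31748 had all counts of its pair or none in each of the 8 mice. Gm27176 did so in 5 of the 7 mice with at least 5 counts in its pair. The values of both genes thus depend on how reads were divided. Gm21451 and Gm16867, the lowest and highest of the 15, share stretches with members, so the same holds for them.

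**Figure D5:**
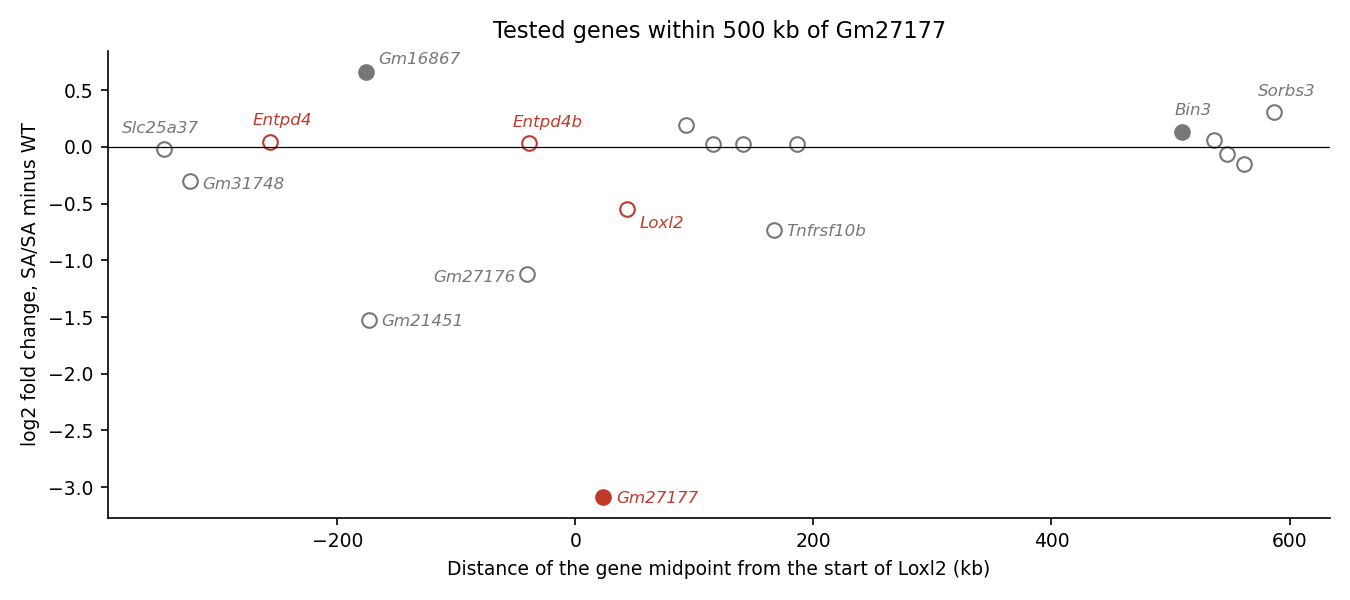
Log2 fold change of SA/SA against WT on the y axis for the 15 tested neighbors (gray) and the 4 members (red), by distance of the gene midpoint from the start of Loxl2 in kb on the x axis. Filled points are genes whose genotypes did not overlap: Gm27177 at -3.08, Gm16867 at 0.66 and Bin3. The points of Gm27177, Gm16867, Gm21451, Entpd4, Entpd4b, Gm31748 and Gm27176 depend on how reads were divided between copies.

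The pathways of LOXL2 and ENTPD4 were read from 7 lists of genes, and none of their genes passed the genotype test. Of the 5 lysyl oxidases, which include Loxl2, 4 had a lower fitted value in SA/SA mice, with a median log2 fold change of -0.32, against -0.01 over all genes tested. Without Loxl2, which was chosen by this contrast, 3 of 4 were lower, with a median of -0.21. Loxl4 averaged 1.83 CPM ± 0.753 in WT mice and 1.14 CPM ± 0.468 in SA/SA livers (SD, n = 4 each), and Loxl3 averaged 2.51 CPM ± 0.457 and 2.002 CPM ± 0.974. Lox, the founding member, had 0.218 CPM ± 0.141 and 0.283 CPM ± 0.155. All 5 overlapped between genotypes.

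Among the substrates and partners of these enzymes, 16 of 17 collagen and elastic fiber genes had a lower fitted value in SA/SA mice. Their median log2 fold change was -0.33, with 0 genes without overlap, where 1.36% of all genes tested were lower without overlap. Col5a1, a chain of the fibril-nucleating collagen V, averaged 13.9 CPM ± 0.958 in WT mice and 11.1 CPM ± 1.31 in SA/SA mice (adjusted p = 0.993, edgeR). Col6a1 averaged 12.7 CPM ± 3.27 and 9.36 CPM ± 1.54, and the proteoglycan gene Lum averaged 5.32 CPM ± 1.10 and 3.39 CPM ± 1.43. Dcn is both on this list and among the stellate cell markers, and the part of these cells in the collagen values was not tested. Of 10 tested collagen processing enzymes, 8 were lower, with a median of -0.05, among them the prolyl hydroxylase P4ha2 at 6.17 CPM ± 1.70 and 4.23 CPM ± 1.17. Of 8 tested genes of the Snail family and of epithelial-mesenchymal transition, 5 were lower, with a median of -0.10. The transcription factor Zeb1 was the single gene of that list without overlap, as for 1.36% of all genes tested. It averaged 11.8 CPM ± 0.865 in WT mice and 9.32 CPM ± 0.291 in SA/SA mice (adjusted p = 0.993, edgeR).

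The family of ENTPD4 and the genes of nucleotide sugar use made up the last 3 lists. Of 8 tested members of the E-NTPDase family, 4 were higher and 4 lower in SA/SA mice. Entpd4 and Entpd4b, chosen by this contrast and sharing their reads, are 2 of the 4 higher ones, and without them 2 were higher and 4 lower, with a median log2 fold change of -0.06. Entpd5, a diphosphatase of the endoplasmic reticulum, averaged 283 CPM ± 14.9 in WT mice and 266 CPM ± 32.5 in SA/SA livers (SD, n = 4 each). Of 9 other nucleotide hydrolases, 4 were higher and 5 lower, with a median of -0.01. Enpp3, an ectonucleotide pyrophosphatase, had the smallest p of that list, at 22.2 CPM ± 6.54 and 14.5 CPM ± 3.25 with an adjusted p of 0.993 by edgeR. Of 9 nucleotide sugar transporters, 8 were lower and 1 higher, with a median of -0.09. Slc35a3, a Golgi UDP-N-acetylglucosamine transporter, averaged 35.4 CPM ± 3.58 in WT mice and 27.5 CPM ± 1.23 in SA/SA mice (log2 fold change -0.36, adjusted p = 0.993, edgeR). It was the single transporter of the list without overlap, as for 1.36% of all genes tested that were lower in SA/SA mice.

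Among 14610 tested genes outside the window, the 5 whose log2 CPM followed Gm27177 most closely over the 8 mice were Adam9 (r = 0.955), Erlin2 (r = 0.939), Ptprd (r = 0.927), Eya4 (r = 0.919) and Rabep1 (r = 0.906). These values describe the same libraries and include the difference between genotypes. Adam9, a membrane metalloproteinase gene, had 39.8 to 42.7 CPM in WT mice and 34.5 to 37.6 CPM in SA/SA mice. Ptprd, a receptor tyrosine phosphatase gene, had 71.5 to 75.2 CPM and 52.0 to 66.9 CPM. Eya4, a transcriptional coactivator gene, had 0.211 to 0.261 CPM in WT mice and 0 to 0.0371 CPM in SA/SA mice. Each of these ranges was lower in SA/SA mice without overlap, as for 1.36% of all genes tested. Their choice favored this, since r included the difference between genotypes by which Gm27177 was chosen. Eya4 was under 1 CPM in every mouse. The closest genes to Loxl2 were E330034L11Rik (r = 0.984) and Sh3rf1 (r = 0.958), to Entpd4 Apoo (r = 0.974) and Heatr1 (r = 0.972), and to Entpd4b Cdc42ep4 (r = 0.982) and Rgs16 (r = 0.968). Entpd4 and Entpd4b, identical in their longest transcripts, had neither of these in common, and their separate values depend on how reads were divided. Whether the highest r of 14610 genes over 8 mice exceeded chance was not tested.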

How the data were processed

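Stranded mRNA libraries were sequenced as 100 bp pairs, and the authors deposited 1 table of estimated counts per gene from salmon, scaled for transcript length and not for library size. The submitters' processing notes name bcl2fastq, STAR, SAMtools, MultiQC and DESeq2 and build GRCm38. The use of strand, the annotation and the treatment of identical transcripts in the counting are not given in the sources used here, so reads of copies, and of a gene and its antisense partner, cannot be told apart with certainty.

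Columns were matched to mice by animal number, with 0 columns unused. Counts were rounded, kept with filterByExpr, normalized by TMM and tested in R 4.3.3 with edgeR 4.0.16 (quasi-likelihood, Benjamini-Hochberg over the 14629 genes). Log2 CPM used a prior count of 2, and shares used the deposited values. Alternatives were DESeq2 1.42.0, limma-voom (limma 3.58.1), other scalings and filters, blocks, and leaving out each mouse. Positions and sequences came from GENCODE M21, which holds 45143 of the table's identifiers. Fits were tested on simulated data. No libraries were copies of each other (least chi-square per gene between a pair, 51.6).

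The members and lists were chosen with earlier results of these data known. Named were the members, tested genes within 500 kb of Gm27177, up to 3 genes per pathway list with the smallest p (and any at an adjusted p under 0.05), and the 5 genes with the highest r to Gm27177, or 2 for other members.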

Additional observations from a re-analysis of the deposited data

Results flagged for a closer look

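Among 18 groups of 4 mice searched (the members, Gm16867, Gm21451 and the 3 sums, in each genotype), 2 held a mouse far from the rest by Dixon's test, and chance flags about 1 in 20 groups. WT replicate 1 had 1.81 CPM of Gm27177, against 0.737 to 0.868 CPM in the other WT mice. The same mouse had 38.4 CPM of Entpd4, against 25.4 to 27.6 CPM in the other WT mice, a gap only just past the critical value. Without this mouse, the log2 fold change of SA/SA against WT was -2.69 for Gm27177 and 0.21 for Entpd4.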

How the results depend on the processing

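Of 220 alternative values, 204 kept their side of the threshold or stayed within the spread of the mice, and 16 moved. Contrasts of animal numbers changed sign for Gm27177, Loxl2 and Entpd4 with a mouse left out, none of them past the threshold, and Gm27177 was at -0.59 without the genotype term. The log2 fold change of Gm27177 was -3.12 to -3.005 over other tests, scalings, filters and blocks, -3.25 to -2.69 with a mouse left out, and 0.26 for the sum with Gm16867, a step added after seeing the data. That of Loxl2 was -0.70 to -0.36, that of Entpd4 -0.02 to 0.21 and that of Entpd4b -0.01 to 0.08 with a mouse left out. The Entpd4b share, SA/SA minus WT, was -3.05 to 1.29 percentage points. With the longest transcript as length, levels in WT and SA/SA mice were 0.359 and 0.0423 CPM per kb for Gm27177. They were 0.666 and 0.455 for Loxl2, 8.15 and 8.41 for Entpd4, and 8.07 and 8.25 for Entpd4b. By that length the WT mice of Gm27177 and Loxl2 overlapped.

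Genes at an adjusted p under 0.05 for genotype numbered 6 by DESeq2 and 0 with each mouse left out. At an unadjusted p they numbered 851 without a filter, and from 357, with WT replicate 3 left out, to 894, with SA/SA replicate 1 left out. For animal numbers, adjusted calls were 408 by DESeq2, 514 without a filter, 12 without the genotype term and 0 to 111 with a mouse left out, the highest without WT replicate 3. A replicate block gave 0 adjusted and 579 unadjusted calls and -3.005 for Gm27177. Deviations of same-numbered mice had r of 0.0565, 0.166, -0.111 and 0.129, so the numbers were not taken as a pairing. The cause of these shifts was not tested. Without genotype means subtracted, Gm27177 and Loxl2 had r = 0.356, and without WT replicate 1 and SA/SA replicate 2, Loxl2 and Entpd4 had r = 0.694.

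At 3.35 to 8.14 counts in SA/SA mice, the Gm27177 level is loosely set, and its reads match Gm16867 throughout.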
